A study of Homo sapiens with 6 samples.

Results

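The 40 genes described here encode the folding enzymes of the endoplasmic reticulum (ER) and the machinery of ER-associated degradation (ERAD). They were chosen by gene symbol from a list written by function, with earlier results of these data known. All 40 were found among the 53826 entries of each library, each as a single entry. By role, 11 belong to the Hsp70/Hsp90 chaperone system, 3 to the calnexin/calreticulin cycle, 8 to the disulfide isomerases, 4 to the peptidyl-prolyl isomerases and 14 to ERAD. RNA was sequenced from the pancreatic ductal adenocarcinoma (PDAC) lines PK-1 and Panc-1, both established and of human origin, as a control and after treatment with LY2955303, called RARγi-1, or MM11253, called RARγi-2, which are antagonists of the retinoic acid receptor RARγ that differ in structure. Each line was derived from a single tumour. Treatment lasted 24 h, and each of the 6 conditions is represented by 1 library. Titles decided the group of each library, because the treatment field names RARγi-1 also for the libraries titled RARγi-2. The doses of the RNA-seq are not given in the sources used here. The controls of the study's cell assays received DMSO, and for the RNA-seq the label reads control. Levels are TPM, transcript abundances scaled by length and to a constant total, and can be compared between genes. The lowest value was 1 TPM, shared by 40174 to 40677 entries per library, and is called the floor. Fold changes are differences of log2(TPM + 1), treated minus the control of that line. Conditions were not replicated, so nothing here could be tested and p-values are absent, and a gene is called upregulated or downregulated only when its fold change passed 2-fold. As a guide to variation, the log2 ratios between both inhibitor libraries of a line had a robust SD of 0.41 over the 11268 entries that reached 5 TPM in PK-1 and of 0.32 over the 11056 that did so in Panc-1, which also holds real differences between the inhibitors.

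Proteins that enter the secretory pathway fold inside the ER. The Hsp70 chaperone BiP, encoded by HSPA5, binds unfolded chains, J-domain proteins load it and exchange factors release it, lectin chaperones hold glycoproteins, and isomerases set disulfide bonds and proline peptide bonds. Chains that fail to fold are recognized, passed back through the ER membrane, ubiquitinated and extracted for the proteasome. When unfolded proteins accumulate, the sensors IRE1, PERK and ATF6 start the unfolded protein response (UPR), and the transcription factors XBP1 and ATF6 induce many of these genes through short promoter elements. The question addressed by the RNA-seq was what blocking RARγ does to gene expression in PDAC cells.

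The promoter element most closely tied to this response is the ER stress response element (ERSE), CCAAT and CCACG with 9 bases between them, together with the shorter ERSE-II, ATTGG and CCACG with 1 base between them. Windows from 250 bases before to 50 bases after annotated starts were searched on both strands in RefSeq sequences of GRCh38.p14, where 36 of the 40 genes had at least 1 window. PDIA3, FKBP14, DERL1 and DERL3 had none. ERSE was found in HSPA5, HSP90B1, CRELD2, CALR, CANX and PDIA6, and ERSE-II in HYOU1, SDF2L1 and HERPUD1, together 9 of 36 genes or 25%, against 0.161% of the 27305 genes with a window and 0.317% of the 9786 of them that reached 5 TPM. Both elements were searched because they are known from genes of this response, so these shares are a description and not an independent test. The sequences of 8 of these 9 promoters are shown because the mean log2 fold changes of the genes range from 0.51 to 3.10. They read 5′ to 3′ along the strand of the gene, and capitals mark the fixed letters of the element, which read in reverse complement where it lies on the opposite strand. The PDIA6 stretch lies within the span of that gene, before an inner annotated start. The ERSE of CANX, the promoter not shown, also lies within the span of its gene, at inner annotated starts.
HSPA5, chr9:125241371-125241429, minus strand: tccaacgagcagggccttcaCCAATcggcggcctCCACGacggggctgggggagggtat
HERPUD1, chr16:56932005-56932055, plus strand: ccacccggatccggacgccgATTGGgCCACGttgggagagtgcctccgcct
HYOU1, chr11:119057254-119057410, minus strand: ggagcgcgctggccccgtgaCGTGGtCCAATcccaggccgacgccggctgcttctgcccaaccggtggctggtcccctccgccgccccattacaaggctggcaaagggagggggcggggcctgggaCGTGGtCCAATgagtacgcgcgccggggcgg
SDF2L1, chr22:21642094-21642144, plus strand: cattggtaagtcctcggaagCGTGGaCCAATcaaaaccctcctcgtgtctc
CRELD2, chr22:49918534-49918592, plus strand: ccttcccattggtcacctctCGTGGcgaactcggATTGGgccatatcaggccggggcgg
HSP90B1, chr12:103930196-103930359, plus strand: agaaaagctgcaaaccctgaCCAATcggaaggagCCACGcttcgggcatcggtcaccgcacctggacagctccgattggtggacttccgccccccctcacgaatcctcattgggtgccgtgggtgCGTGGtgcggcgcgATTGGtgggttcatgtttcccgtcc
CALR, chr19:12938364-12938422, plus strand: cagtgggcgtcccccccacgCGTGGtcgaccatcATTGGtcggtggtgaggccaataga
PDIA6, chr2:10812833-10812891, minus strand: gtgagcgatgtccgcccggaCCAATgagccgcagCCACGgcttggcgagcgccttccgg

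HYOU1 and HSP90B1 each carried 2 copies. The letters of UPRE (TGACGTGG), another element of the response, were found in HYOU1, where they overlap an ERSE-II, and in DNAJC10, TXNDC5, TXNDC11, UBE2J1 and VCP, which is 6 of 36 genes or 16.7%, against 0.927% of all genes with a window and 1.22% of those that reached 5 TPM. TGATGNAA, the core of the element bound by ATF4 and C/EBP proteins, was found in HERPUD1 alone, 1 of 36 genes or 2.78%, against 4.46% of all and 2.67% of those that reached 5 TPM. A match describes letters in these windows and is not a measured binding site, and a gene without a match can carry the element elsewhere or in a variant form.

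Between 13149 and 13652 entries per library lay above the floor, and the number of reads is not kept in TPM, so the depth is unknown. The epithelial markers KRT8, KRT18, KRT19, KRT7, EPCAM and CDH1 were all above the floor in PK-1. In Panc-1, CDH1 was at the floor in each library and the other 5 were above it. KRT7 and EPCAM were low there, at 4.19, 2.40 and 2.67 TPM and at 13.4, 19.4 and 9.18 TPM. Both inhibitors downregulated KRT8, KRT18 and KRT19 in Panc-1, at -3.21 to -1.99 (log2), and KRT7 in PK-1, at -1.30 and -1.20. The summed level of the 6 markers was 22498 TPM in the PK-1 control and 13507 and 14127 TPM in its treated libraries. It was 8419 TPM in the Panc-1 control and 1784 and 1485 TPM in its treated libraries. The keratins carried this sum. In PK-1, CDH1 measured 170, 270 and 385 TPM and EPCAM 578, 552 and 497 TPM in control, RARγi-1 and RARγi-2. The mesenchymal marker VIM was upregulated in PK-1, at 41.7, 92.1 and 140.0 TPM, and measured 6291, 4049 and 3962 TPM in Panc-1. The part of these changes in the results was not tested. PTPRC, PECAM1, ALB and CPA1 were at the floor in all 6 libraries, and the acinar gene PRSS1 reached 21.2 TPM in PK-1 with RARγi-2. The background is formed by 12412 entries, those that reached 5 TPM somewhere among the 6 libraries. Their median fold change was 0.13 (log2) in PK-1 with RARγi-1 and 0.05 in Panc-1 with RARγi-1, and 0.00 in both lines with RARγi-2. The median ratio to the control, used to rescale the libraries, was 0.12 (log2) for PK-1 with RARγi-1 and 0.07 for Panc-1 with RARγi-1.

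In PK-1 cells, RARγi-1 upregulated 16 of the 40 genes more than 2-fold and RARγi-2 upregulated 32, against 9.91% and 12.9% of the 12412 entries. The inhibitors upregulated 14 and 31 of them in Panc-1 cells, against 7.86% and 9.02%. After rescaling the counts were 13 and 32 for PK-1, with 13 and 31 for Panc-1. None of the 40 was downregulated more than 2-fold in any comparison, while 5.20%, 13.5%, 6.51% and 12.0% of the entries were downregulated in the single comparisons and 2.19% in all 4, RARγi-1 before RARγi-2 and PK-1 before Panc-1. The median fold change of the 40 genes on the log2 scale was 0.87 for RARγi-1 and 1.30 for RARγi-2 in PK-1, while Panc-1 had 0.77 and 1.48. Both comparisons within a line use the same control library. In all 4 comparisons, 10 genes were upregulated, against 2.71% of the entries: DNAJB9, HSPA5, HERPUD1, HYOU1, SYVN1, MANF, PDIA5, EDEM2, DNAJC10 and SEL1L. After rescaling, DNAJC10, MANF and SEL1L each missed 2-fold in 1 comparison and 7 genes remained. A further 9 genes were upregulated in 3 comparisons, 12 in 2 and 2 in 1, and 7 in none. Of the 12412 entries, 295 were upregulated in 3 comparisons, 900 in 2 and 897 in 1, and 9984 in none. Higher than control by any amount in all 4 comparisons were 37 genes, against 30.0% of the entries, and only UBE2G2 was lower in all 4, against 23.4% of the entries. With rescaling, 2 of these 37 fell below control with RARγi-1: DERL3 in Panc-1, at -0.01 (log2), and UGGT1 in PK-1, at -0.11.

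**Figure D1:**
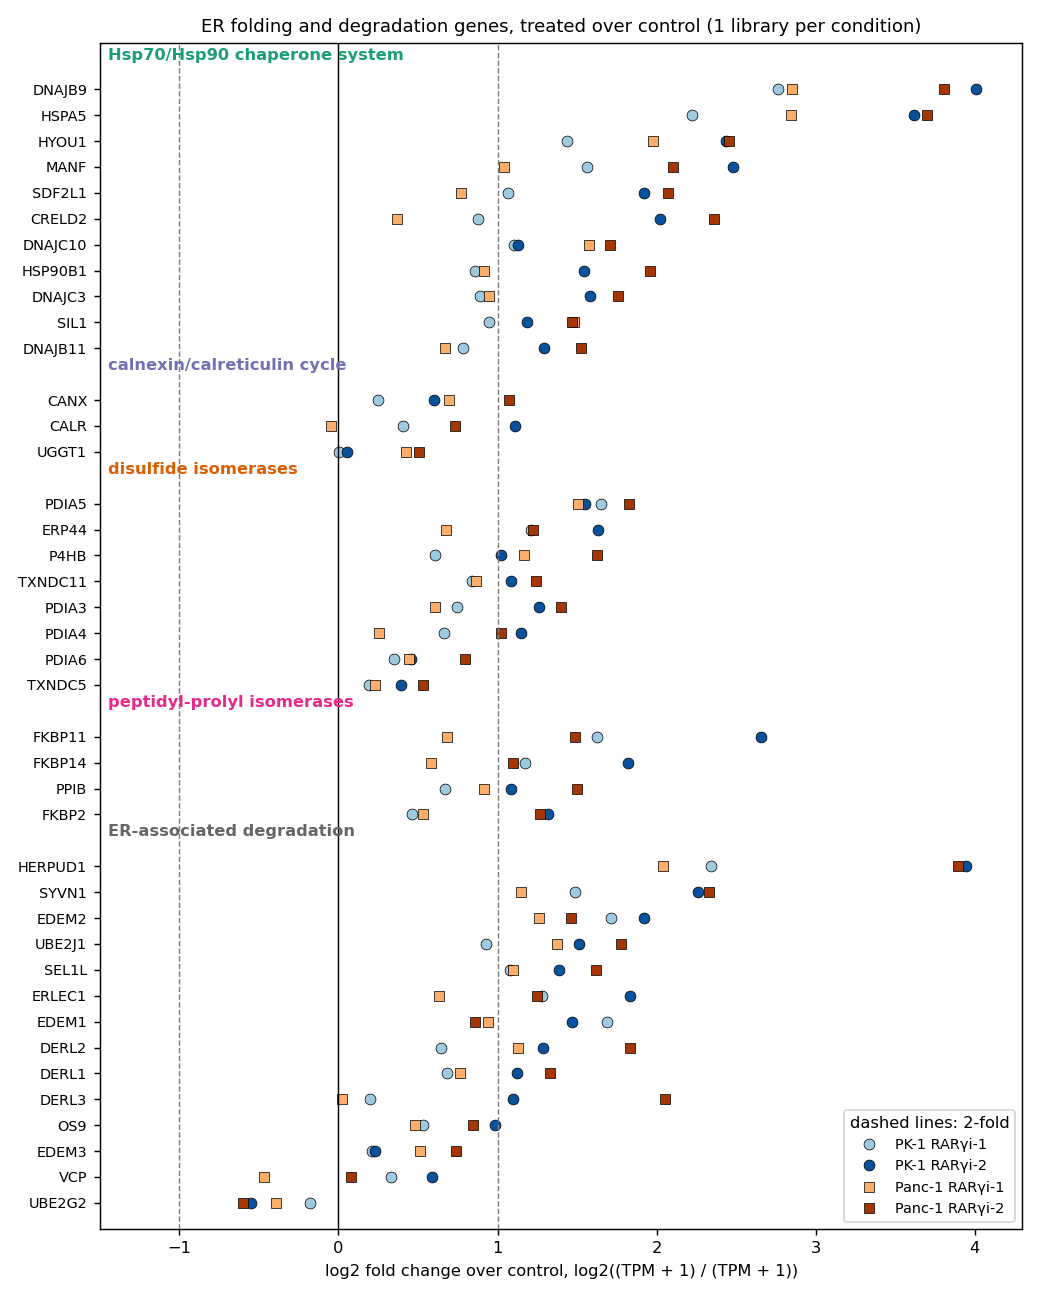
Log2 fold change of each of the 40 genes over the control of its cell line (x axis), by role and, within a role, by mean fold change; circles stand for PK-1 and squares for Panc-1, light for RARγi-1 and dark for RARγi-2, with 1 library per condition and dashed lines at 2-fold. DNAJB9, HSPA5 and HERPUD1 lie past 4-fold in every comparison, and only UBE2G2, VCP and CALR have a point below 0.

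All 11 genes of the Hsp70/Hsp90 chaperone system were upregulated by RARγi-2 in both lines, and 6 of the 11 by RARγi-1 in each line. Of the 12412 entries, RARγi-2 upregulated 12.9% (PK-1) and 9.02% (Panc-1), and RARγi-1 upregulated 9.91% and 7.86%. On the log2 scale its median in PK-1 was 1.06 for RARγi-1 and 1.92 for RARγi-2, and in Panc-1 it was 1.04 and 2.07. HSPA5 (Entrez gene 3309, chr9:125234853-125241343), which encodes BiP, measured 532, 2487 and 6542 TPM in PK-1 (control, then the inhibitors in order of their number), and 434, 3123 and 5661 TPM in Panc-1. It was entry number 240 by level in the PK-1 control and number 7 with RARγi-2, and went from number 322 to number 11 in Panc-1. DNAJB9 (4189, chr7:108569874-108574850), a J-domain partner of BiP, had the highest mean fold change of the 40 genes, 3.36 (log2). It measured 10.6, 77.3 and 185 TPM in PK-1 and 9.88, 77.6 and 151 TPM in Panc-1 for control, RARγi-1 and RARγi-2. The control libraries of both lines were thus below 11 TPM, and no match to the 4 searched elements lay in its promoter windows.

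HYOU1 (10525, chr11:119044188-119057205), a large Hsp70 relative that releases nucleotide from BiP, measured 117, 318 and 636 TPM in PK-1 and 197, 776 and 1084 TPM in Panc-1. MANF (7873, chr3:51385291-51389397), a small ER protein that binds BiP and is also secreted, measured 156, 463 and 877 TPM in PK-1 and 162, 336 and 701 TPM in Panc-1. DNAJC10 (54431, chr2:182716257-182794464), a J-domain protein that also reduces disulfide bonds of ERAD substrates, measured 56.2, 122 and 124 TPM in PK-1 and 44.8, 136 and 149 TPM in Panc-1. HYOU1 and MANF were ordered control, RARγi-1, RARγi-2 in both lines, and the log2 ratio of RARγi-2 over RARγi-1 of HYOU1 was 0.48 in Panc-1, below the median of 0.86 of the chaperone system there. DNAJC10 was nearly level between the inhibitors, with log2 ratios of RARγi-2 over RARγi-1 of 0.03 (PK-1) and 0.13 (Panc-1). SIL1 (64374), the other exchange factor of BiP, was also nearly level between the inhibitors in Panc-1, at a log2 ratio of -0.02, and its fold changes were 0.95 and 1.18 in PK-1 cells and, in Panc-1 cells, 1.48 and 1.47. The lowest mean of this role was that of DNAJB11 (51726), a soluble J-domain cochaperone, at 1.07 (log2). DNAJB11 measured 189, 326 and 464 TPM in PK-1 and 229, 365 and 661 TPM in Panc-1.

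The other members of the chaperone system passed 2-fold with RARγi-2 and mostly not with RARγi-1. HSP90B1 (7184), the ER form of Hsp90, had log2 fold changes of 0.86 and 1.55 for PK-1, with 0.91 and 1.96 for Panc-1. DNAJC3 (5611), a J-domain cochaperone that also inhibits PERK, had 0.89 and 1.58 in PK-1 cells and, in Panc-1 cells, 0.95 and 1.76. CRELD2 (79174), an ER protein induced by ER stress, had 0.88 and 2.02 for PK-1, with 0.37 and 2.36 for Panc-1. Its fold change with RARγi-1 in Panc-1 was the lowest of the role. SDF2L1 (23753), which works with J-domain proteins of the ER, had 1.06 and 1.92 in PK-1 cells and, in Panc-1 cells, 0.77 and 2.07; after rescaling its value in PK-1 with RARγi-1 was 0.95.

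**Figure D2:**
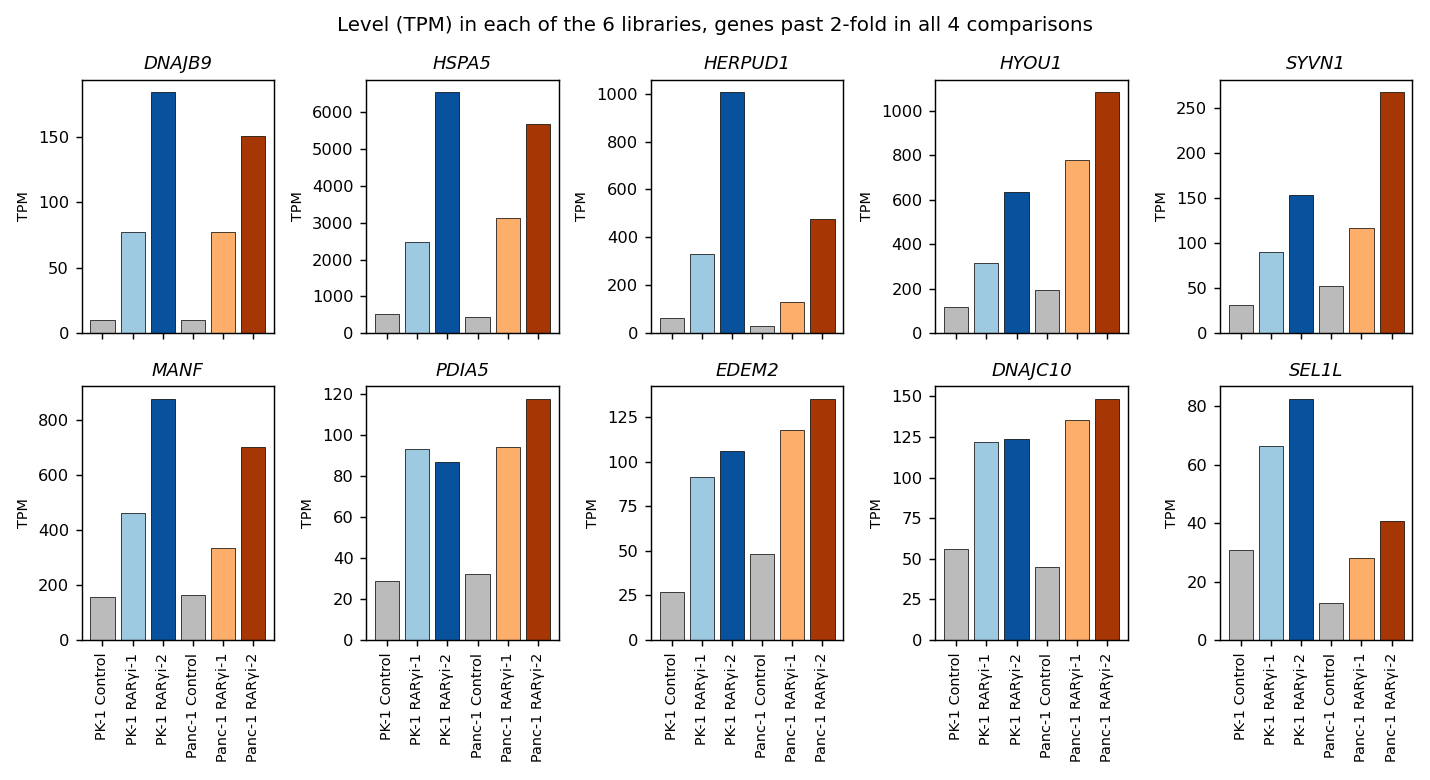
Level in TPM (y axis, each panel with its own scale from 0) in the 6 libraries, for the 10 genes past 2-fold in all 4 comparisons; grey bars are controls, light bars RARγi-1 and dark bars RARγi-2, and each bar is 1 library. Each treated bar stands above the control bar of its line, and PDIA5 in PK-1 is the only gene with a lower bar for RARγi-2 than for RARγi-1, 86.8 against 92.9 TPM.

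The 3 genes of the calnexin/calreticulin cycle changed least. Their median log2 fold changes in PK-1 were 0.25 and 0.60, those in Panc-1 were 0.42 and 0.73, and none of the 3 was upregulated by RARγi-1. As RARγi-1 upregulated 9.91% (PK-1) and 7.86% (Panc-1) of the 12412 entries, none among 3 genes does not set them apart. CANX (821), the membrane lectin chaperone, measured 506, 602 and 768 TPM in PK-1 and 326, 528 and 687 TPM in Panc-1, and passed 2-fold only with RARγi-2 in Panc-1, at 1.07 (log2). CALR (811), its soluble counterpart, passed only with RARγi-2 in PK-1, at 1.11, and its fold change with RARγi-1 in Panc-1 was -0.05. UGGT1 (56886), the enzyme that marks misfolded glycoproteins for another round, measured 29.6, 29.6 and 30.6 TPM in PK-1 and 27.2, 36.8 and 38.9 TPM in Panc-1. Its PK-1 libraries lay within 0.05 (log2) of each other, below the robust SD of 0.41 between the inhibitors in that line. CALR, CANX and PDIA6 carry an ERSE match and had mean fold changes of 0.55, 0.66 and 0.51 (log2), so the 9 genes with ERSE or ERSE-II spanned mean fold changes from 0.51 to 3.10. Their medians were 0.88 (RARγi-1) and 1.92 (RARγi-2) for PK-1, with 0.77 and 2.07 for Panc-1, and those of the 27 genes with a window and neither element were 0.89 and 1.29 for PK-1, with 0.92 and 1.47 for Panc-1.

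Of the 8 disulfide isomerases, 2 were upregulated by RARγi-1 and 6 by RARγi-2 in each line, and all 8 were higher than control in each of the 4 comparisons. Their median log2 fold changes were 0.70 and 1.11 for PK-1, with 0.64 and 1.23 for Panc-1. PDIA5 (10954, chr3:123067025-123162104), a less abundant member of the protein disulfide isomerase family, had the highest mean, 1.63, with 28.9, 92.9 and 86.8 TPM in PK-1 and 32.4, 93.8 and 118 TPM in Panc-1. ERP44 (23071), which retains ER oxidases in the early secretory pathway, passed 2-fold in all comparisons other than RARγi-1 in Panc-1, at 0.67. P4HB (5034), the classical protein disulfide isomerase, was the most abundant of the role in all 6 libraries and had log2 fold changes of 0.61 and 1.02 for PK-1, with 1.17 and 1.63 for Panc-1.

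PDIA3 (2923), the partner of calnexin and calreticulin, TXNDC11 (51061), a thioredoxin-domain protein of the ER membrane, and PDIA4 (9601) were upregulated by RARγi-2 in both lines and not by RARγi-1 in either, though TXNDC11 in PK-1 missed 2-fold with a pseudocount of 5. For PDIA3 the fold changes were 0.74 and 1.26 in PK-1 cells and, in Panc-1 cells, 0.61 and 1.40. The processed pseudogene entry PDIA3P1 had 0.68 and 1.08 for PK-1, with 0.64 and 1.26 for Panc-1 at 24.4 to 76.7 TPM, and reads could have been split between these near-identical sequences. PDIA6 (10130) passed 2-fold in no comparison, with fold changes between 0.35 and 0.79. TXNDC5 (81567) had the lowest mean of the role, 0.34, and measured 75.4, 86.2 and 99.5 TPM in PK-1 and 113, 133 and 164 TPM in Panc-1. The readthrough entry BLOC1S5-TXNDC5, which overlaps it, was listed at 70.8, 79.6 and 91.6 TPM in PK-1 and 105, 124 and 153 TPM in Panc-1, so the level of TXNDC5 is uncertain.

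Of the 4 peptidyl-prolyl isomerases, all were upregulated by RARγi-2 in both lines, and by RARγi-1 only FKBP11 and FKBP14 in PK-1 and none in Panc-1. Of the 12412 entries, RARγi-2 upregulated 12.9% (PK-1) and 9.02% (Panc-1), and RARγi-1 upregulated 9.91% and 7.86%. With 4 genes, none with RARγi-1 in Panc-1 does not set this role apart from the entries. FKBP11 (51303, chr12:48921963-48939034), a membrane protein abundant in secretory cells, measured 48.1, 150.3 and 309 TPM in PK-1 and 30.4, 49.4 and 86.9 TPM in Panc-1. Its fold changes were 1.62 and 2.66 (log2) in PK-1 against 0.68 and 1.49 in Panc-1, the widest gap between the lines with RARγi-2 among the 40 genes in favor of PK-1. FKBP14 (55033), known for its part in collagen folding, had 1.18 and 1.82 in PK-1 cells and, in Panc-1 cells, 0.58 and 1.10; with a pseudocount of 5 its values in PK-1 with RARγi-1 and in Panc-1 with RARγi-2 were 0.93 and 0.96. PPIB (5479), cyclophilin B, was the most abundant of the 40 genes in the PK-1 control, at 1341 TPM, and had log2 fold changes of 0.67 and 1.08 there and of 0.92 with RARγi-1 in Panc-1. FKBP2 (2286), with the lowest mean of the role, measured 136, 188 and 342 TPM in PK-1 and 181, 263 and 438 TPM in Panc-1.

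The 14 genes of ERAD were heterogeneous, and 4 were upregulated in all 4 comparisons and 4 in none. Of the 12412 entries, 2.71% were upregulated in all 4 comparisons and 9984 entries in none. Median log2 fold changes of the 14 genes were 0.81 and 1.34 for PK-1, with 0.85 and 1.40 for Panc-1. HERPUD1 (9709, chr16:56932142-56944864), a membrane protein that organizes the ligase complex and is itself short-lived, measured 64.4, 331 and 1007 TPM in PK-1 and 31.1, 131 and 477 TPM in Panc-1. With RARγi-2 its fold changes of 3.95 and 3.89 were number 35 and number 18 among the 12412 entries. SYVN1 (84447, chr11:65127279-65134519), the ubiquitin ligase at the core of the complex, measured 31.3, 89.7 and 154 TPM in PK-1 and 52.5, 117 and 268 TPM in Panc-1. SEL1L (6400, chr14:81471547-81533853), its adaptor, measured 30.9, 66.4 and 82.6 TPM in PK-1 and 12.6, 28.1 and 40.8 TPM in Panc-1. The ligase, its adaptor and HERPUD1 were thus past 2-fold in every comparison, SEL1L closest to the threshold: with a pseudocount of 5 its values with RARγi-1 were 0.99 (PK-1) and 0.91 (Panc-1).

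The EDEM proteins trim mannose from glycoproteins that fail to fold, and the 3 genes differed. EDEM2 (55741, chr20:35115364-35147336) measured 27.2, 91.4 and 106 TPM in PK-1 and 48.4, 118 and 135 TPM in Panc-1, past 2-fold in all 4 comparisons. EDEM1 (9695) measured 29.6, 97.5 and 83.4 TPM in PK-1 and 15.9, 31.4 and 29.6 TPM in Panc-1, so it passed in PK-1 and fell just short in Panc-1, at 0.94 and 0.86 (log2), and was slightly lower with RARγi-2 than with RARγi-1 in both lines. EDEM3 (80267) measured 11.8, 13.8 and 14.0 TPM in PK-1 and 6.96, 10.3 and 12.3 TPM in Panc-1, and passed in no comparison. The derlins, membrane proteins that form part of the exit channel, were also unequal in level. DERL1 (79139) measured 90.6, 146 and 198 TPM in PK-1 and 58.6, 100.5 and 149 TPM in Panc-1, and DERL2 (51009) measured 26.1, 41.4 and 65.0 TPM in PK-1 and 30.0, 66.7 and 109 TPM in Panc-1. DERL3 (91319) was near the floor, at 1.53, 1.91 and 4.41 TPM in PK-1, and at the floor, 1.03 and 7.29 TPM in Panc-1. All 3 derlins were upregulated by RARγi-2 in both lines; the value of DERL3 in Panc-1 counts from a control at the floor, and its fold change in PK-1 was 0.53 with a pseudocount of 5.

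The remaining ERAD genes act before and after the ligase. ERLEC1 (27248) and OS9 (10956) are lectins that bring glycoproteins to SEL1L. ERLEC1 had log2 fold changes of 1.28 and 1.83 for PK-1, with 0.63 and 1.25 for Panc-1. OS9 had 0.53 and 0.98 in PK-1 cells and, in Panc-1 cells, 0.48 and 0.84, below 2-fold throughout. UBE2J1 (51465), the membrane-bound ubiquitin-conjugating enzyme, had 0.93 and 1.51 for PK-1, with 1.37 and 1.78 for Panc-1. UBE2G2 (7327, chr21:44768580-44801820), the soluble conjugating enzyme, went the other way, with 40.6, 35.8 and 27.4 TPM in PK-1 and 84.2, 63.8 and 55.1 TPM in Panc-1. Each treated library was below its control, by fold changes of -0.18 and -0.55 in PK-1 cells and, in Panc-1 cells, -0.40 and -0.60, none past 2-fold. VCP (7415), the ATPase that extracts substrates in ERAD and in many other pathways, had 0.33 and 0.59 for PK-1, with -0.47 and 0.08 for Panc-1.

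Between the inhibitors, 37 of the 40 genes were higher with RARγi-2 than with RARγi-1 in each line, against 33.3% of the 12412 entries in PK-1 and 33.4% in Panc-1. In both lines at once this held for 36 genes, against 19.4% of the entries. The median log2 ratio of RARγi-2 over RARγi-1 was 0.50 (PK-1) and 0.56 (Panc-1) for the 40 genes, and -0.14 (PK-1) and -0.09 (Panc-1) over all entries. EDEM1 and UBE2G2 were lower with RARγi-2 in both lines, PDIA5 in PK-1 and SIL1 in Panc-1. Past 2-fold were 5 genes in PK-1, against 1.38% of the entries, with HERPUD1 the highest at 1.60 (log2), followed by HSPA5 at 1.39 and DNAJB9 at 1.24. In Panc-1 there were 7, against 0.725%, with DERL3 at 2.03, CRELD2 at 1.99, HERPUD1 at 1.86 and SDF2L1 at 1.30. By role, the median ratios were widest for the chaperone system, 0.85 (PK-1) and 0.86 (Panc-1), and smallest for the disulfide isomerases in PK-1, 0.33, and the calnexin/calreticulin cycle in Panc-1, 0.38. In the cell cycle and apoptosis assays of the study, RARγi-2 was used at a higher concentration than RARγi-1. Whether the doses of the RNA-seq were matched is not known, so these ratios compare the libraries and not the potency of the compounds.

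The lines have separate controls, so their fold changes can be set against each other. With RARγi-1 the fold changes of the 40 genes in PK-1 and Panc-1 had a Pearson's r of 0.81 and a Spearman's rho of 0.74, and over the 12412 entries 0.56 and 0.56. With RARγi-2 the values were 0.89 and 0.75 for the 40 genes, and 0.62 and 0.62 over the entries. These are correlations across genes of the same 2 pairs of libraries and are given as a description. The fold change was larger in Panc-1 for 20 of the 40 genes with RARγi-1 and for 25 with RARγi-2, and the median difference between the lines was -0.02 and 0.14 (log2). HSPA5 with RARγi-1 was larger in Panc-1, 2.84 against 2.22, and FKBP11, ERLEC1 and EDEM1 were larger in PK-1 with both inhibitors. No gene of the 40 moved in one direction with both inhibitors in PK-1 and in the other in Panc-1.

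**Figure D3:**
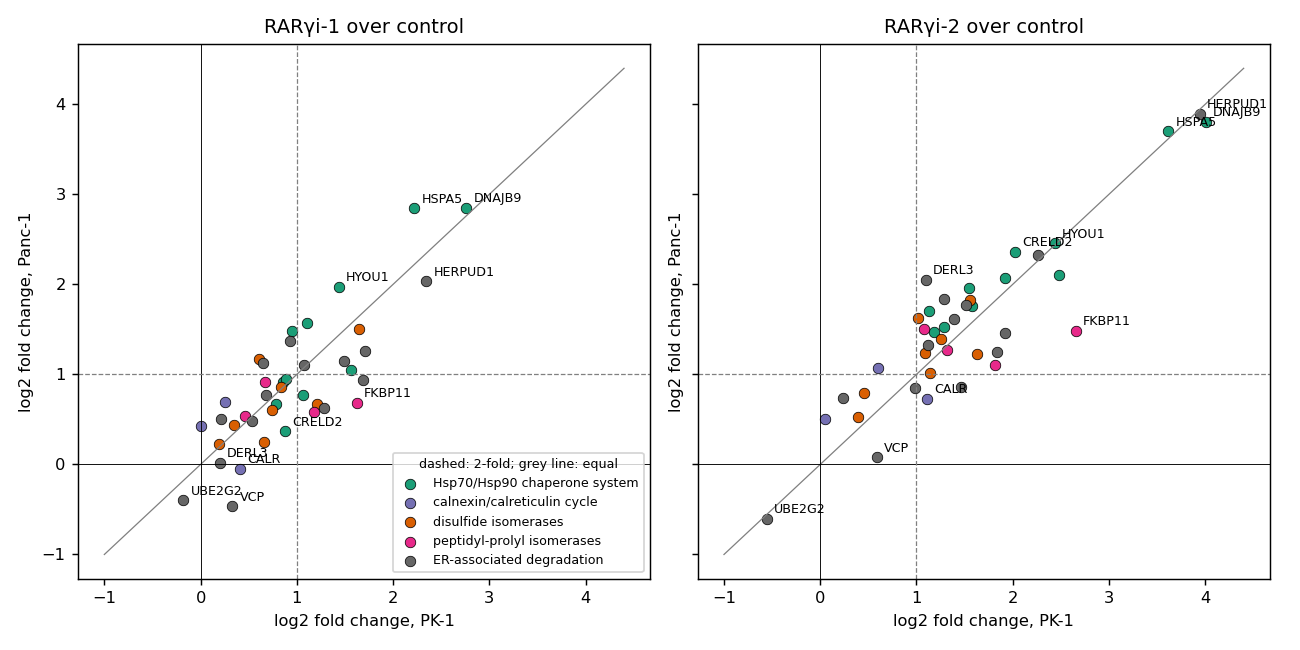
Log2 fold change over control in PK-1 (x axis) and Panc-1 (y axis) for each of the 40 genes, with RARγi-1 on the left and RARγi-2 on the right; colors give the role, dashed lines 2-fold and the grey line equal values. Points shift up and to the right from the left panel to the right panel, HSPA5, DNAJB9 and HERPUD1 lie at the upper end in both, and FKBP11 lies below the line of equal values, at 2.66 in PK-1 and 1.49 in Panc-1 with RARγi-2.

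In the control libraries, 20 of the 40 genes were higher in each line, with a median log2 ratio of Panc-1 over PK-1 of -0.03. Only UBE2G2 and VCP were more than 2-fold higher in the Panc-1 control, against 17.3% of the entries, and DNAJC3, ERP44, SEL1L and HERPUD1 in the PK-1 control, against 16.1%. The summed level of the 40 genes was 8179, 15307 and 25750.5 TPM in PK-1 and 7811, 15108.5 and 25145 TPM in Panc-1, for control, RARγi-1 and RARγi-2. As a share of all TPM above the floor, this was 0.819%, 1.53% and 2.58% for PK-1, with 0.782%, 1.51% and 2.52% in Panc-1. HSPA5 alone made up 25.4% of the sum with RARγi-2 in PK-1 and 22.5% in Panc-1; without it the sums there were 19208.5 and 19484 TPM. The chaperone system had the widest change in summed level, 2.67-fold and 5.56-fold in PK-1 and 3.31-fold and 6.11-fold in Panc-1, and the calnexin/calreticulin cycle the smallest, 1.26-fold and 1.86-fold in PK-1 and 1.10-fold and 1.74-fold in Panc-1. HSPA5 alone made up 52.8% (PK-1) and 47.8% (Panc-1) of the chaperone sum with RARγi-2, so this gene weighs heavily in that change. As TPM values add up to a constant, a larger share for the 40 genes leaves a smaller one for all others, and total RNA per cell was not measured.

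**Figure D4:**
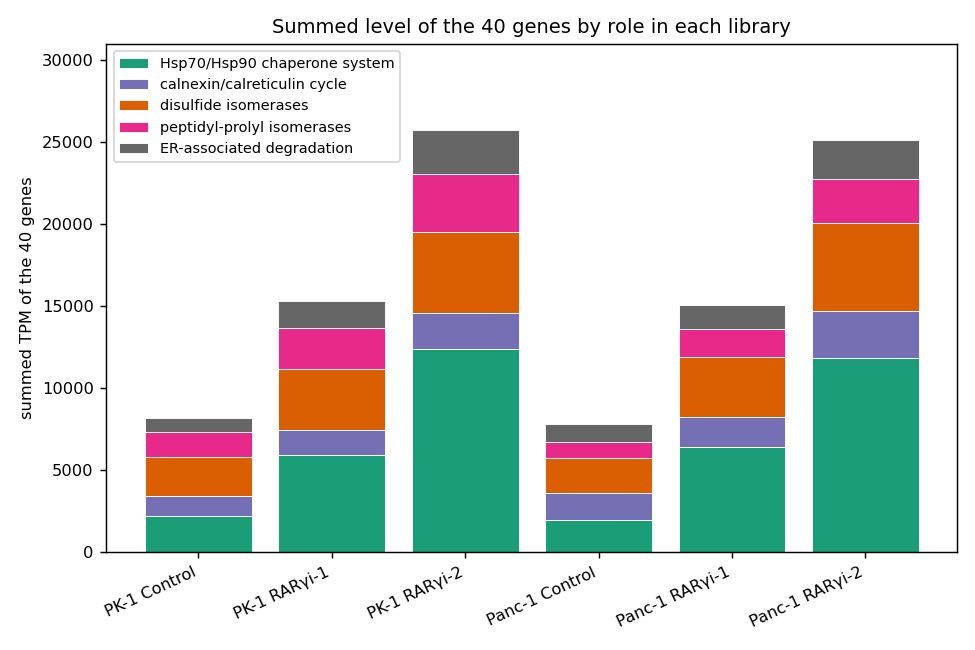
Summed TPM of the 40 genes (y axis) in each of the 6 libraries, stacked by role; each bar is 1 library. The bars reach 8179, 15307 and 25750.5 TPM in PK-1 and 7811, 15108.5 and 25145 TPM in Panc-1 for control, RARγi-1 and RARγi-2, and the chaperone system takes the largest part of the RARγi-2 bars.

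Relatives of these genes that work outside the ER, or that are not in the list, were followed in 19 pairs, of which 17 had a relative that reached 5 TPM. These 17 pairs hold 14 distinct ER genes, because HSPA5 and HSP90B1 were each paired with more than 1 relative. In 12 of the 17 pairs the fold change of the ER gene was larger than that of its relative in all 4 comparisons. The 40 genes were chosen with earlier results known, and 37 were higher than control in all 4 comparisons. The count therefore describes these pairs, and was not set against pairs with unrelated entries. Medians of the 17 relatives were 0.08 and -0.05 (log2) for PK-1, with 0.14 and 0.49 for Panc-1. Those over the 12412 entries were 0.13 and 0.00 for PK-1, with 0.05 and 0.00 for Panc-1. The cytosolic Hsp70 gene HSPA8 had log2 fold changes of -0.41 and -0.56 for PK-1, with 0.04 and 0.53 for Panc-1, and the mitochondrial HSPA9 had 0.13 and 0.22 in PK-1 cells and, in Panc-1 cells, 0.59 and 0.79, so that HSPA5 was larger than either by at least 2.09 in each comparison. The cytosolic HSP90AB1 had -0.39, -0.45, -0.32 and 0.02 in the same order of comparisons, and the mitochondrial TRAP1 was downregulated in PK-1, at -1.12 and -1.74. The cytosolic cyclophilin PPIA was lower than control in all 4, between -0.84 and -0.50, where PPIB was higher. In 2 pairs the relative was larger in all 4 comparisons. CLGN, a calnexin relative best known from testis, measured 2.92, 47.1 and 63.3 TPM in PK-1 and 1.92, 33.0 and 25.2 TPM in Panc-1, with fold changes from 3.17 to 4.03, whereas those of CANX ran from 0.25 to 1.07. SEL1L3 had fold changes of 1.84 and 1.88 for PK-1, with 1.25 and 2.04 for Panc-1, whose control was at the floor. The pairs of CRELD2, UGGT1 and UBE2G2 were mixed.

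**Figure D5:**
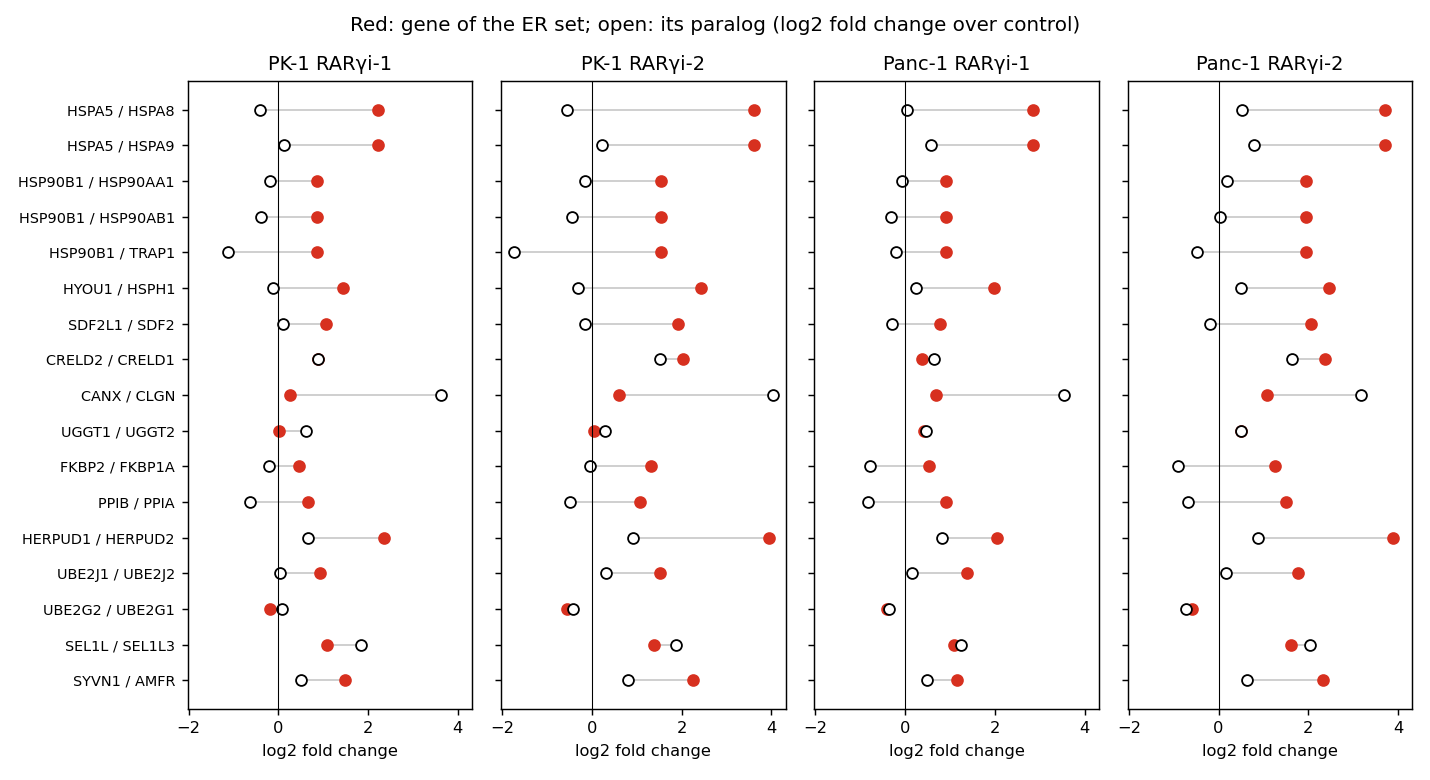
Log2 fold change over control (x axis) of each gene of the ER set (red) and of its relative (open circles), 1 panel for each comparison and 1 row for each of the 17 pairs whose relative reached 5 TPM; each point compares 2 libraries. The red point lies to the right in all 4 panels for 12 pairs, and CLGN lies far to the right of CANX, with fold changes from 3.17 to 4.03.

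Further genes of ER folding and of ERAD were followed from lists written by function, with earlier results of these data known. Of 34 other ER folding genes that reached 5 TPM, RARγi-1 upregulated 4 and RARγi-2 upregulated 6 for PK-1, with 2 and 8 for Panc-1. These are 11.8%, 17.6%, 5.88% and 23.5% of the list, against 9.91%, 12.9%, 7.86% and 9.02% of the 12412 entries, and none was upregulated in all 4 comparisons. Medians lay between 0.05 and 0.19 (log2), below those of the 40 genes in each comparison. The 3 genes upregulated in 3 comparisons, named after their values were seen, were ERO1B, KDELR3 and SEC63. KDELR3, a receptor that returns ER proteins from the Golgi, had 1.58 and 2.48 for PK-1, with 0.74 and 1.88 for Panc-1, and SEC63, a J-domain protein at the translocation channel, measured 24.5, 48.0 and 55.5 TPM in PK-1 and 50.3, 107 and 144 TPM in Panc-1. ERO1A, an oxidase that recharges disulfide isomerases, passed 2-fold in no comparison, with values between 0.44 and 0.77. Of 32 other ERAD genes, the inhibitors upregulated 4 and 5 for PK-1, with 3 and 5 for Panc-1, which is 12.5%, 15.6%, 9.38% and 15.6% against the same background shares. Their medians were 0.28 and 0.38 (log2) for PK-1, with 0.13 and 0.21 for Panc-1. RARγi-2 downregulated 2 of them in PK-1, FOXRED2 at -1.69 and ERLIN1 at -1.51, against 13.5% of the entries. In Panc-1 it downregulated 1, FOXRED2 at -1.13, against 12.0%. SELENOS and RNF185 were upregulated in all 4 comparisons, against 2.71% of the entries. SELENOS, a selenoprotein that ties VCP to the ER membrane, measured 97.4, 303 and 565 TPM in PK-1 and 74.2, 211 and 406 TPM in Panc-1. Of the 7 UPR regulators, XBP1, EIF2AK3, which encodes PERK, and DDIT3 were upregulated in all 4 comparisons, against 2.71% of the entries. ATF4 missed 2-fold with RARγi-1 in Panc-1, at 0.99, and ERN1, which encodes IRE1, with RARγi-2 in Panc-1, at 0.91. ATF6 passed 2-fold in Panc-1 only, with 0.61 and 0.70 in PK-1, and ATF6B passed in no comparison.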

How the data were processed

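The authors deposited, for each of the 6 libraries, log2 values of TPM per gene symbol and Entrez gene ID; per the file headers the values are log2-transformed, and no value lay below 0, which corresponds to 1 TPM. Libraries were made with a stranded mRNA kit. The submitters' processing notes name the build hg38; the aligner, counting method, strand setting and annotation are not given in the sources used here. Deposited values were converted to TPM, a pseudocount of 1 TPM was added and log2 ratios were taken in Python 3.11.15 with pandas 2.3.3 and numpy 2.4.6, and the step was tested on simulated data. The 40 genes and the lists of further genes were chosen with earlier results of these data known. TPM in each library is printed for genes past 2-fold in all 4 comparisons, for the highest and lowest mean of each role, and for the EDEM and DERL families; others are given by fold change. The background is the 12412 entries that reached 5 TPM in any library. All genes of the further lists were found, by symbol or by Entrez gene ID. No test was made with 1 library per condition. Alternatives were no pseudocount, a pseudocount of 5, rescaling by median ratios to the control, fold thresholds of 1.5 and 3, a minimum of 5 TPM, all entries above the floor as background, sums over all entries of a symbol, and sums without HSPA5. The counts per role under these settings of the fold change were added after seeing the data. Gene positions and promoter windows come from RefSeq, GRCh38.p14. Protein sequences were not used here.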

Additional observations from a re-analysis of the deposited data

How the results depend on the processing

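No paired analysis was possible because the labels carry no replicate numbers and each condition has 1 library. A minimum of 5 TPM and sums over all entries of a symbol could change nothing, since all 40 genes reached 5 TPM and each had a single entry. With no pseudocount, a pseudocount of 5 or rescaling, the medians of the 40 genes and of each role moved by less than the robust SD between the inhibitor libraries. That SD is a spread of single genes and not the uncertainty of a median. Rescaling shifted no fold change of the 40 genes by more than 0.12 (log2), so it could not move a median that far. The counts of upregulated genes over all 40 stayed within 1.5 times their values under the same settings. Of the counts per role, recomputed after seeing the data with no pseudocount, a pseudocount of 5 and rescaling, all but 2 did so. The peptidyl-prolyl isomerases upregulated by RARγi-1 in PK-1 went from 2 to 1 with a pseudocount of 5, and the chaperone genes upregulated in all 4 comparisons from 5 to 3 with rescaling. Leaving out a replicate was not run, since no condition has more than 1 library. No call of a single gene changed without a pseudocount; 6 of 160 changed with a pseudocount of 5 and 4 with rescaling. Without a pseudocount, RARγi-2 gave DERL3 a fold change of 1.52 (PK-1) and 2.87 (Panc-1) on the log2 scale. At a threshold of 1.5-fold, RARγi-1 upregulated 29 genes (PK-1, against 23.0% of all entries) and 27 (Panc-1, 19.4%), 26 were upregulated in all 4 comparisons (8.18%), and 1 gene, UBE2G2, was downregulated with RARγi-2 in Panc-1 (22.0%). At 3-fold, RARγi-1 upregulated 7 genes (PK-1, 3.02%) and 4 (Panc-1, 2.30%), RARγi-2 upregulated 13 (PK-1, 5.41%) and 17 (Panc-1, 3.20%), and 3 passed in all 4 comparisons (0.757%). Without HSPA5 the summed levels were 19208.5 TPM in PK-1 with RARγi-2 and 11986 and 19484 TPM in Panc-1 with RARγi-1 and RARγi-2. Depth is unknown, and values near the floor, such as those of DERL3, are the least certain.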

Other observations

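AGR2, a disulfide isomerase relative of mucus-secreting cells that is not among the 40 genes, went in opposite directions in the lines. It measured 445, 3927 and 11302 TPM in PK-1 and 208, 36.4 and 134 TPM in Panc-1 for control, RARγi-1 and RARγi-2, that is log2 fold changes of 3.14 and 4.66 in PK-1 and of -2.48 and -0.64 in Panc-1. With RARγi-2 in PK-1 its level was above that of HSPA5, which measured 6542 TPM. ERP29, another ER folding gene, was upregulated in Panc-1, at 1.27 and 1.12, and had 0.05 and -0.07 in PK-1. TXNDC15 measured 19.4, 56.7 and 73.4 TPM in PK-1 and 27.8, 33.5 and 47.0 TPM in Panc-1, past 2-fold in PK-1 only. ERP27 was listed at 11.5 TPM in the PK-1 control, 1.13 TPM with RARγi-1 and the floor with RARγi-2, and at the floor throughout Panc-1. These 4 genes were picked from the list of other ER folding genes after their values were seen, and none of the differences between the lines was tested.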
